A study of Mus musculus with 2 samples.

Results

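The small leucine-rich proteoglycans (SLRPs) are 10 genes here, found as all non-control probes whose gene name on the array is Dcn, Bgn, Lum, Fmod, Ogn, Prelp, Aspn, Kera, Omd or Epyc. They were represented by 14 probes, among 37008 gene names on the array. RNA of 2 mouse brain samples was hybridised, each to 1 Agilent 1-colour array: a neurosphere culture, which is a floating cluster of neural stem and progenitor cells, and cells labelled VZ/SVZ, for the ventricular and subventricular zones, a germinal region beside the lateral ventricles. The labels give both samples as C57BL/6 strain, age 6 months, genotype Ecrg4hetero, beta-gal positive, and the growth protocol places both in DMEM/F12 with bFGF, EGF and heparin, so both share genotype, strain, age and medium. As models both are limited by what the labels leave unsaid: the way positive cells were picked, the number of animals and the days in culture are not given in the sources. With 1 array in each group there is no replicate error, no p-value and no test, and every difference describes these arrays.

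SLRPs are secreted proteins whose core is a curved stack of leucine-rich repeats, often with attached glycosaminoglycan chains of chondroitin, dermatan or keratan sulfate. They lie on collagen fibrils, regulate fibril diameter and spacing, and bind growth factors such as TGF-beta. In the brain they are known from the meninges and the walls of blood vessels, where fibroblasts and mural cells make them. By sequence they fall into class I (Dcn, Bgn, Aspn), class II (Lum, Fmod, Kera, Prelp, Omd) and class III (Ogn, Epyc).

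Probes of 3 members are shown first, because each value rests on the 60 bases that a probe reads. The Dcn and Bgn probes gave far higher signals on the VZ/SVZ array, and the Prelp probe a higher signal on the neurosphere array. They lie at chr10:96980233-96980292, chrX:70738554-70738613 and chr1:135809343-135811065 in the array's build (mm9). The 60 bases of the Prelp probe are spread over 1723 bases of the genome. All letters are in lower case because no part is singled out.
Dcn probe: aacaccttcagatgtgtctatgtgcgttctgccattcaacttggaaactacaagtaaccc
Bgn probe: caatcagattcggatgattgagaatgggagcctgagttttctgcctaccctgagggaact
Prelp probe: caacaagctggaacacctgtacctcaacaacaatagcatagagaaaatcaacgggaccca
Across the 85 pairs of probes of different members the longest identical run was 9 bases, so no member's probe shares a long stretch with that of another member. The share of G and C ran from 35% in the probes of Aspn, Epyc, Kera and Omd to 48.3% in the Bgn probe shown.

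Of the 10 members, 3 were well above background on both arrays (Fmod, Ogn and Prelp), 5 on the VZ/SVZ array alone (Dcn, Bgn, Lum, Kera and Aspn), none on the neurosphere array alone, and 2 on neither (Omd and Epyc). Over all 37006 genes with usable spots, 59.4% were well above background on both arrays, 8.59% on VZ/SVZ alone, 3.41% on the neurosphere alone and 28.6% on neither. Levels are log2 processed signals minus the 75th percentile of their array, and differences are VZ/SVZ minus neurosphere. Where the neurosphere spot was not well above background, "at least" gives the VZ/SVZ level over the higher of the neurosphere value and the lowest level of any neurosphere probe well above background. In bulk RNA, fewer cells of a type and less RNA per cell cannot be told apart.

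Every class I member was well above background on the VZ/SVZ array alone, and so could come out higher there only. Bgn encodes biglycan, a class I proteoglycan of connective tissue and vessel walls that also acts as a signal to innate immune receptors. Its main probe had a processed signal of 3.62 for the neurosphere and 3609 for VZ/SVZ. The neurosphere value was not well above background, and the raw spot mean of 30.0 there stood against a local background of 23. The difference was at least 650-fold (log2 at least 9.35). Dcn encodes decorin, which coats collagen fibrils and binds TGF-beta. It read 1.23 for the neurosphere against 2292 for VZ/SVZ, and its raw neurosphere spot mean of 24.3 was close to the median of 24.1 over 308 negative control spots on that array. That gave at least 413-fold (log2 at least 8.69). Aspn encodes asporin, a class I member named for its run of aspartate residues and known from cartilage and periodontal ligament. It read 4.90 for the neurosphere, not well above background, and 14.9 for VZ/SVZ, at least 2.69-fold higher. Its neurosphere value lay just under the lowest signal well above background on that array, 5.20.

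Class II divided. Lum encodes lumican, a keratan sulfate proteoglycan that keeps collagen fibrils of the cornea and other tissues thin and evenly spaced. It read 2.52 for the neurosphere, not well above background, against 1337 for VZ/SVZ, at least 241-fold higher (log2 at least 7.91). Kera encodes keratocan, known as the keratan sulfate proteoglycan of the cornea. It read 4.44 for the neurosphere, not well above background, and 81.6 for VZ/SVZ, a difference of at least 14.7-fold (log2 at least 3.88). Fmod encodes fibromodulin, a collagen-binding member of tendon and cartilage, and was well above background in both samples. Its signal was 19.5 in the neurosphere and 46.8 in VZ/SVZ, 2.25-fold higher (log2 1.17 ± 0.22, where the error is the scanner software's technical error only, with no part from animals or cultures).

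Prelp was the member whose difference pointed to the neurosphere. It encodes a heparin-binding member that anchors basement membranes to the connective tissue beside them. Its signal was 37.4 in the neurosphere and 20.04 in VZ/SVZ, a log2 difference of -0.99 ± 0.23, or 1.99-fold. That lay just short of the 2-fold size used for counting. The other probe of the same transcript that was well above background in the neurosphere read 9.20 there and 5.87 in VZ/SVZ. The second value was not well above background, which gave a difference of at least 1.66-fold. Being dim in VZ/SVZ alone, that probe could point to the neurosphere only. The Prelp probe that the array annotates to a neonatal skin cDNA clone was not well above background on either array, at 1.29 and 1.46. Omd, which encodes osteomodulin of bone, was also not well above background on either array, at 1.05 and 1.21. Its raw spot means of 26.8 and 27.6 lay near the 95th percentile of the negative control spots, 26.5 for the neurosphere and 27.1 for VZ/SVZ.

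Class III gave no difference past 2-fold. Ogn encodes osteoglycin, also called mimecan, a collagen-associated member found in bone, vessel walls and meninges. It read 6.35 for the neurosphere against 6.76 for VZ/SVZ, with a log2 difference of -0.00 ± 0.42, and -0.59 after quantile normalisation. Both values stood just over the lowest signals well above background on their arrays, 5.20 and 5.93, and the technical error was the largest among the 3 members measured on both arrays. Epyc, which encodes epiphycan of growth cartilage, was not well above background on either array, at 1.03 and 1.18. Its raw spot means of 25.5 and 25.3 lay under the 95th percentile of the negative controls.

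**Figure D1:**
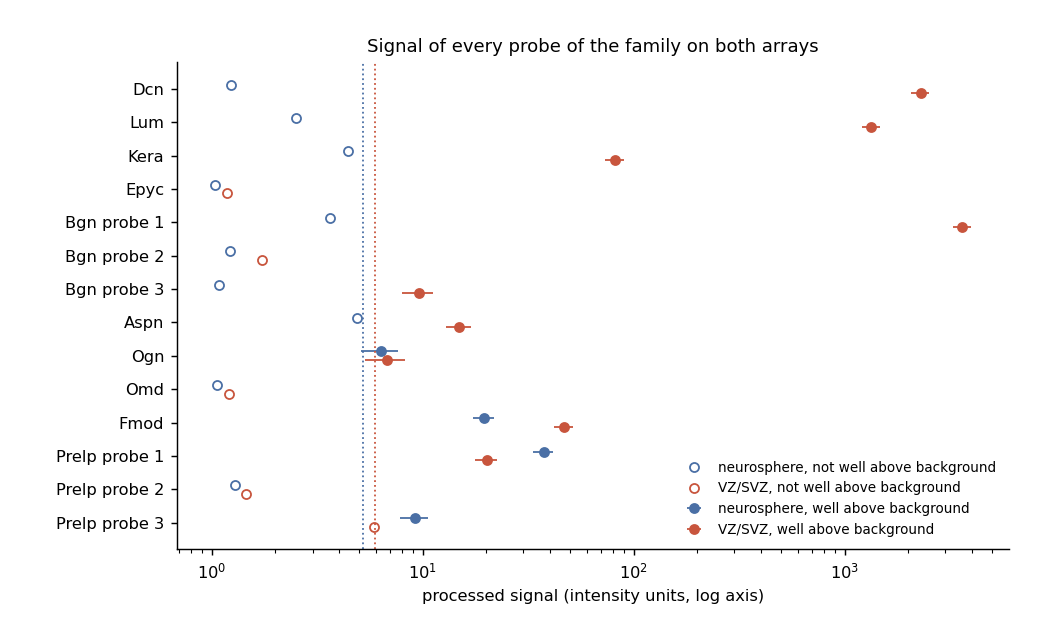
Processed signal (log axis) of the 14 probes of the family on the neurosphere array (blue) and the VZ/SVZ array (red); filled points are well above background with the scanner's technical error as a bar, open points are not, and dotted lines mark the lowest signal well above background on each array (5.20 and 5.93). Dcn, Lum and probe 1 of Bgn read 2292, 1337 and 3609 in VZ/SVZ and lie left of the dotted line in the neurosphere, whereas Prelp probe 1 is higher in the neurosphere.

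Counted at a fixed size of 2-fold, 6 of the 10 members were higher in VZ/SVZ (Bgn, Dcn, Lum, Kera, Aspn and Fmod) and none in the neurosphere. The background over 26434 measured genes was 18.7% past 2-fold towards VZ/SVZ and 11.1% towards the neurosphere, or 13.3% and 7.91% of all genes on the array. Of the genes past 2-fold, 62.8% were higher in VZ/SVZ, and 51.9% after quantile normalisation. Of the 6 members, 5 entered through the VZ/SVZ array alone and so could count in that direction only, which leaves Fmod, Ogn and Prelp as the members free to fall either way. Those 3 pointed to VZ/SVZ, to neither and to the neurosphere. Aspn and Fmod fell under 2-fold with normexp background correction (log2 at least 0.11 for Aspn, 0.43 for Fmod). That setting added an offset of 50 to every spot, which by arithmetic shrinks folds between low signals. Both also fell under 2-fold when arrays were quantile normalised (at least 0.90 for Aspn, 0.89 for Fmod). Kera was at least 1.02 with normexp, on the edge of the threshold. Bgn, Dcn and Lum stayed past 2-fold under the 7 alternatives that gave them a value.

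**Figure D2:**
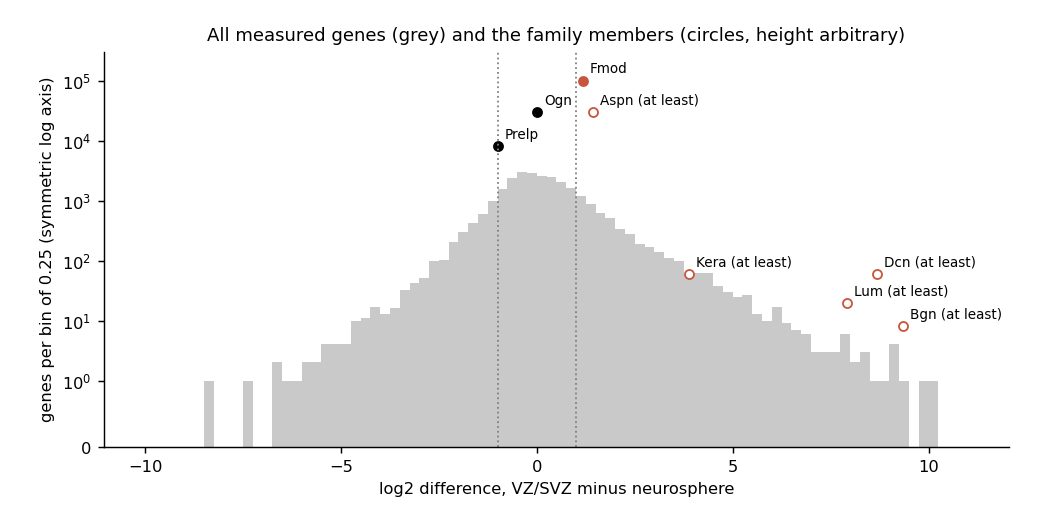
Number of measured genes in bins of 0.25 of the log2 difference VZ/SVZ minus neurosphere (grey bars, symmetric log axis, genes dim on 1 array at their bound), with the 8 measured members as circles at arbitrary height and dotted lines at 2-fold. Open circles are lower bounds: Lum, Dcn and Bgn lie at 7.91 or more, while Ogn lies at -0.00 and Prelp at -0.99.

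The members lie in gene clusters, which the choice of genes did not use. Dcn, Lum, Kera and Epyc follow each other over 164 kb of chromosome 10, with 1 noncoding gene name, 4930473O22Rik, between Lum and Kera. Along the chromosome the differences were at least 8.69 for Dcn, at least 7.91 for Lum 55.0 kb further and at least 3.88 for Kera at 96.0 kb, and Epyc at 163.7 kb was not measured. Of 8 other gene names within 500 kb, 5 were measured. None of them was 2-fold higher in VZ/SVZ and 1 was higher in the neurosphere, the clone 4930556N09Rik at the far end. The nearest names on either side, NAP112620-1 and Gm10754, were at -0.00 and not well above background, respectively. 4930473O22Rik was not well above background either. Dcn, Lum and Kera were past 2-fold towards VZ/SVZ in this stretch, and none of the 5 measured neighbours was. Over all measured genes 18.7% passed towards VZ/SVZ and 11.1% towards the neurosphere. These shares also stand beside the neighbour counts of the other clusters. With 5 neighbours, a count of none does not set the members apart from them. Dcn, Lum and Kera were dim on the neurosphere array and could count towards VZ/SVZ only.

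The cluster of Aspn, Omd and Ogn spans 57.1 kb of chromosome 13. The nearest name before Aspn, the clone AK042419, was not well above background on either array. Beyond it lies Ecm2, a related gene for a matrix protein with leucine-rich repeats, which pointed to the neurosphere. Ecm2 read 9.68 there and 1.23 in VZ/SVZ, a bound of 1.74-fold towards the neurosphere, which is under 2-fold. Aspn nearby pointed to VZ/SVZ by at least 2.69-fold. Ecm2 was dim on the VZ/SVZ array alone and Aspn on the neurosphere array alone. Each could point only the way it did, so their opposite directions do not set these neighbours apart. Nol8, the nearest gene after Ogn, encodes a nucleolar protein and was at -0.37. Of 20 measured names around this cluster, 2 were higher in VZ/SVZ, 1 in the neurosphere and 17 within 2-fold, bounds such as Ecm2 included.

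Prelp and Fmod lie 137 kb apart on chromosome 1, and their probes pointed in opposite directions. On the far side of Prelp, 9.8 kb before its first probe, is Optc, which encodes opticin, a class III relative known from the eye. Optc read 38.9 in the neurosphere and 5.70 in VZ/SVZ, not well above background, so the neurosphere was higher by at least 7.01-fold. Prelp, just short of 2-fold, and Optc pointed to the neurosphere, and Fmod to VZ/SVZ. Optc was well above background on the neurosphere array alone and so could point in that direction only. Between Prelp and Fmod the array has 1 intergenic probe, at 0.33. Btg2, an antiproliferative gene and the nearest named one beyond Fmod, was at 0.92, and of 24 measured names around the pair 1 passed 2-fold towards VZ/SVZ and 3 towards the neurosphere. Bgn stands alone on the X chromosome. Its neighbours Haus7, a subunit of the augmin complex of the spindle, and Atp2b3, a plasma membrane calcium pump, were at -0.97 and -0.29. Of 24 measured names within 500 kb of Bgn, 4 were higher in VZ/SVZ, 5 in the neurosphere and 15 within 2-fold, with bounds taken at their value.

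**Figure D3:**
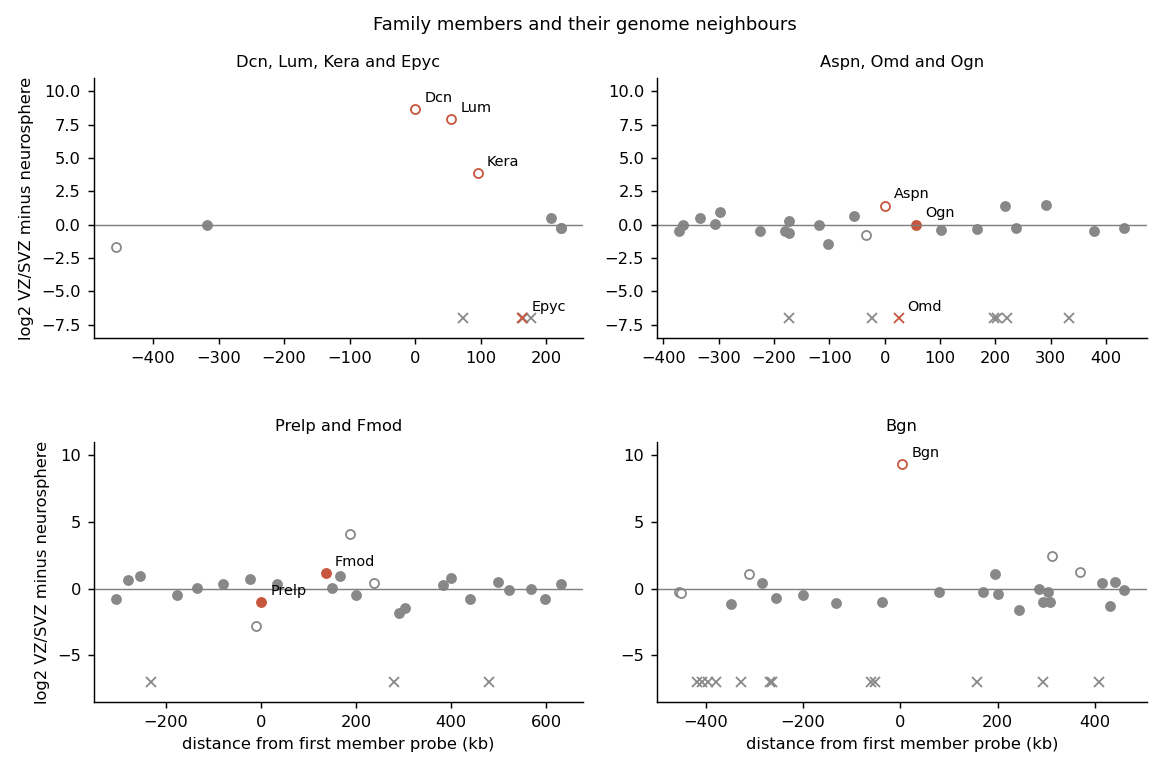
Log2 difference VZ/SVZ minus neurosphere of family members (red) and other gene names within 500 kb (grey) against distance in kb from the first member probe of each cluster; open points are bounds, and crosses drawn at -7 mark genes not well above background on either array, with no value. Dcn, Lum, Kera and Bgn lie above every neighbour with a value in their own cluster.

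The probes of a gene did not all report the same size. Bgn had 3. The main one, matched to its RefSeq mRNA, gave at least 650-fold, while the probe of transcript ENSMUST00000140803, about 1.5 kb before it, read 1.08 and 9.55, a difference of at least 1.72-fold. The probe of transcript ENSMUST00000130873, nearest the start of the gene, was not well above background on either array, at 1.22 and 1.73. The fold of Bgn therefore rests on 1 probe. The ENSMUST00000140803 probe was dim on the neurosphere array alone, so it could point to VZ/SVZ only. With the median over the probes of Bgn the log2 difference was at least 5.06. Dcn, Lum, Kera, Aspn, Fmod and Ogn had 1 probe each, so no second probe checks their values.

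The upstream sequence of Bgn and Aspn, both higher in VZ/SVZ, is printed to show how unlike the starts of these class I genes are. RefSeq's promoter table (GRCm38.p6) matched 8 of the 10 members, not Dcn and Lum. The 250 bases before the start were searched on both strands for TATAAA (the TATA box), CCAAT (the CCAAT box), GGGCGG (the GC box bound by Sp1) and TGANTCA (the AP-1 site), and matches are in capitals. The windows are chrX:73483351-73483600 for Bgn and chr13:49544193-49544442 for Aspn, both on the plus strand.
Bgn upstream: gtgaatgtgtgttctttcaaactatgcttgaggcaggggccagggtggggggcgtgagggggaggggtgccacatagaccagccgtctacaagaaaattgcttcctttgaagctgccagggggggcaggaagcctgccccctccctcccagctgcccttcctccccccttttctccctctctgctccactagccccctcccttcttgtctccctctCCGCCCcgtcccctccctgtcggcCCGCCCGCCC
Aspn upstream: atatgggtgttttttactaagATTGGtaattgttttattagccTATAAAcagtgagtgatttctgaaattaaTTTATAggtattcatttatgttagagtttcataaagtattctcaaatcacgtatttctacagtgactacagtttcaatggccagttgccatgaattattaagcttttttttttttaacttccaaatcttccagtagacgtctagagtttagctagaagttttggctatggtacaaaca
The Bgn window was 64.4% G and C and held GGGCGG 3 times, the nearest beginning 6 bases before the start and overlapping the next, and no TATAAA. The Aspn window was 30.0% G and C, with TATAAA beginning 207 and 178 bases before the start and CCAAT at 229. Over all 32851 windows in the table the median was 52.4% G and C, and 12.4% held TATAAA, 33.8% CCAAT, 32.7% GGGCGG and 6.75% TGANTCA. Of the 8 members with a window, 2 held TATAAA, 3 CCAAT, 1 GGGCGG and none TGANTCA. A match describes letters, not a site in use.

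Other leucine-rich relatives pointed both ways. Of 8 further genes of the family and its outer classes, 6 were measured, with 1 higher in VZ/SVZ, 1 higher in the neurosphere and a median of -0.25. Podn, which encodes podocan of vessel walls, read 5.49 in the neurosphere, not well above background, and 16.3 in VZ/SVZ, at least 2.77-fold higher. Optc was the one higher in the neurosphere, with its other probe at -0.84. By the probes used, Podn was dim on the neurosphere array alone and Optc on the VZ/SVZ array alone. Each could count in its own direction only. Quantile normalisation counted none and 2. Chad (0.52 ± 0.29), Chadl (-0.43 ± 0.21, its probes from -0.66 to 1.03) and Tsku (-0.07 ± 0.21) lay within 2-fold. Ecm2, dim in VZ/SVZ, has only a bound of at least 1.74-fold, which does not place it within 2-fold. With no filter on dim probes, 1 relative passed towards VZ/SVZ and 2 towards the neurosphere. Nyx and Podnl1 stayed at background in both samples.

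Enzymes that build the chains of these proteoglycans are described by the chain they make. None of the 7 genes of the linker, the short sugar stretch that joins each chain to the core protein, passed 2-fold by its brightest probe. Their median was -0.53. B3galt6 was dim in VZ/SVZ (7.02 against 2.01), so its difference of at least 1.26-fold towards the neurosphere is a bound. With the median over probes 1 gene passed 2-fold towards the neurosphere. With no filter on dim probes 1 gene did, not necessarily the same one. Fam20b, the kinase that phosphorylates the first sugar of the linker, was at -0.95 ± 0.20, its probes reaching -1.57, and Xylt1, which adds that sugar, at -0.65 ± 0.20. Of 16 genes of chondroitin and dermatan sulfate chains, 14 were measured, 3 passed 2-fold towards VZ/SVZ and 1 towards the neurosphere, with a median of 0.09. These shares, 21.4% and 7.14%, were near the 18.7% and 11.1% over all measured genes. Csgalnact1, which starts the chondroitin chain, was higher in VZ/SVZ by a log2 difference of 2.32 ± 0.21 (31.1 against 166). Dse, the epimerase that turns chondroitin into dermatan sulfate, was 2.55-fold higher there from low signals (6.52 against 17.8). Chst13, a 4-O-sulfotransferase, was also higher there, from 1.60, not well above background, to 22.2, at least 3.999-fold. Chst7, a 6-O-sulfotransferase, was 7.14-fold higher in the neurosphere (565 against 84.4). Neither array measured Chst12 or Chst15 well above background.

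The enzymes of keratan sulfate, the chain of Lum, Fmod and Kera, stood apart from each other. Of 10 genes including the tyrosine sulfotransferases, 9 were measured, 2 were higher in each sample, and the median was -0.07. That is 22.2% each way, beside 18.7% towards VZ/SVZ and 11.1% towards the neurosphere over all measured genes. Chst1, which sulfates galactose in keratan sulfate, read 17.3 in the neurosphere and 356 in VZ/SVZ, 19.3-fold higher (4.27 ± 0.23). B4galt1, a galactosyltransferase, was 10.7-fold higher in VZ/SVZ (97.3 against 1115), with its other probe at 2.87. Chst2, which sulfates N-acetylglucosamine, ran the other way, from 13712 in the neurosphere to 2402 in VZ/SVZ, 6.09-fold higher in the neurosphere. B4galt4, another galactosyltransferase, was 3.18-fold higher in the neurosphere. Chst5 was not measured. Among 6 genes of propeptide processing, Bmp1, the protease that matures biglycan, was at -0.41 ± 0.20, with its probes up to 0.87. Pcolce, its enhancer, was 5.06-fold higher in VZ/SVZ (73.7 against 398), the only one of 5 measured past 2-fold by its brightest probe. Tll1 was at -0.18 by its brightest probe and 2.07 by its other one, and Tll2 was not well above background on either array. Pcolce2 was at 0.39 and Furin at 0.19.

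Fibril collagens and collagen VI, the proteins to which SLRPs bind, were higher in VZ/SVZ in most cases. Of 13 genes, 12 were measured, 9 passed 2-fold towards VZ/SVZ and none the other way, with a median of 2.62 against 0.04 over all measured genes. Of the 12, 4 were dim on the neurosphere array alone and could count towards VZ/SVZ only. Among the 8 bright on both arrays, 5 passed towards VZ/SVZ and none the other way, beside 3171 and 2540 of all 21949 such genes. Col3a1 and Col1a1 read 3.55 and 2.68 in the neurosphere, neither well above background, against 2920 and 1553 for VZ/SVZ, at least 526-fold and 279.9-fold higher, though another probe of Col3a1 gave 0.91. Col1a2 was 74.4-fold higher (30.3 against 2408), with its probes from 1.88 to 6.22, and Col2a1, the collagen of cartilage, 53.4-fold (10.6 against 601). Col14a1 was not well above background on either array. Of 13 growth factors and receptors that bind or sense SLRPs, 7 passed 2-fold towards VZ/SVZ and 1 towards the neurosphere (median 1.02). Bmp4 and Bmp2, ligands of the TGF-beta family, were higher in VZ/SVZ by 38.4-fold and 28.0-fold. Tgfb1, the ligand that decorin binds, was 5.78-fold higher there from a low signal (7.41 against 45.7). Egfr, a receptor tyrosine kinase that decorin can engage, was 3.23-fold higher in the neurosphere (1624 against 537), though its probes ranged from -1.69 to 0.46.

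Marker lists were read for fibroblasts and mural cells, which are known to make SLRPs, and for endothelial cells. Of 15 fibroblast markers, 14 were measured, 10 passed 2-fold towards VZ/SVZ and 3 towards the neurosphere, and their processed signals summed to 2053 for the neurosphere against 15483. Col1a1, Col1a2 and Col3a1 are also in the collagen list. Pdgfra, a receptor of fibroblasts and oligodendrocyte progenitors, was higher in VZ/SVZ by at least 75.5-fold, with its other probe at 1.14. Slc6a13, a transporter of meningeal fibroblasts, read 78.04 for the neurosphere and 3.54 for VZ/SVZ, not well above background, at least 14.04-fold the other way. Fbln1 (3.06-fold) and Foxc1 (2.49-fold) were also higher in the neurosphere. Dpt was not well above background on either array. Of 10 mural cell markers, 6 passed 2-fold towards VZ/SVZ and none the other way, with sums of 7267 and 8539. Most of each sum was the brightest probe of Acta2 (6756 and 5741), at -0.33, with its probes reaching 4.31. Pdgfrb, the receptor of pericytes, read 1.15 for the neurosphere and 975 for VZ/SVZ, at least 176-fold higher, and Kcnj8, a potassium channel gene of pericytes, was at least 68.8-fold higher. Of 10 endothelial markers, 7 passed 2-fold towards VZ/SVZ and 1, Flt1 (8.76-fold, its probes from -3.13 to -0.77), towards the neurosphere, with sums of 279 and 1223. Cdh5, the adhesion gene of endothelial junctions, was higher in VZ/SVZ by at least 72.9-fold. Of the markers measured, 6 of fibroblasts, 4 of mural cells and 5 of endothelial cells were dim on the neurosphere array alone and could count towards VZ/SVZ only. Among markers bright on both arrays, 4 of 7, 3 of 6 and 2 of 4 passed towards VZ/SVZ, and 2, none and 1 towards the neurosphere. Of all 21949 genes bright on both arrays, 3171 passed towards VZ/SVZ and 2540 towards the neurosphere. The fibroblast, mural and endothelial lists kept more genes past 2-fold towards VZ/SVZ under every scaling and background alternative. The part of these cell types in the values of the members was not tested.

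All 12 neural stem and progenitor markers were well above background on both arrays. Of these, 5 were higher in the neurosphere and 1, Prom1, in VZ/SVZ, with a median of -0.66. Their sums of 58422 and 26838 were mostly Fabp7 (42131 and 21259). With the median over probes 2 passed towards VZ/SVZ, and Gfap, the astrocyte intermediate filament, was at 0.92 with its other probe at 5.13. Slc1a3, the glial glutamate transporter, was at -3.90 by its brightest probe, with another at 0.74, and Nes, the progenitor intermediate filament, at -1.81. Of 8 ependymal markers, 7 were measured and 4 were higher in the neurosphere, with sums of 1195 and 327; Ccdc153 was at least 49.0-fold and Foxj1 4.11-fold higher there, and Ak7 was not well above background. Among 8 microglia markers Tyrobp, C1qa, P2ry12 and Cx3cr1 stayed at background on both arrays, and 1 of the others, Tmem119, was higher in VZ/SVZ (3.77-fold). Their sums of 1631 and 2013 were mostly Csf1r (1568 and 1857).

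**Figure D4:**
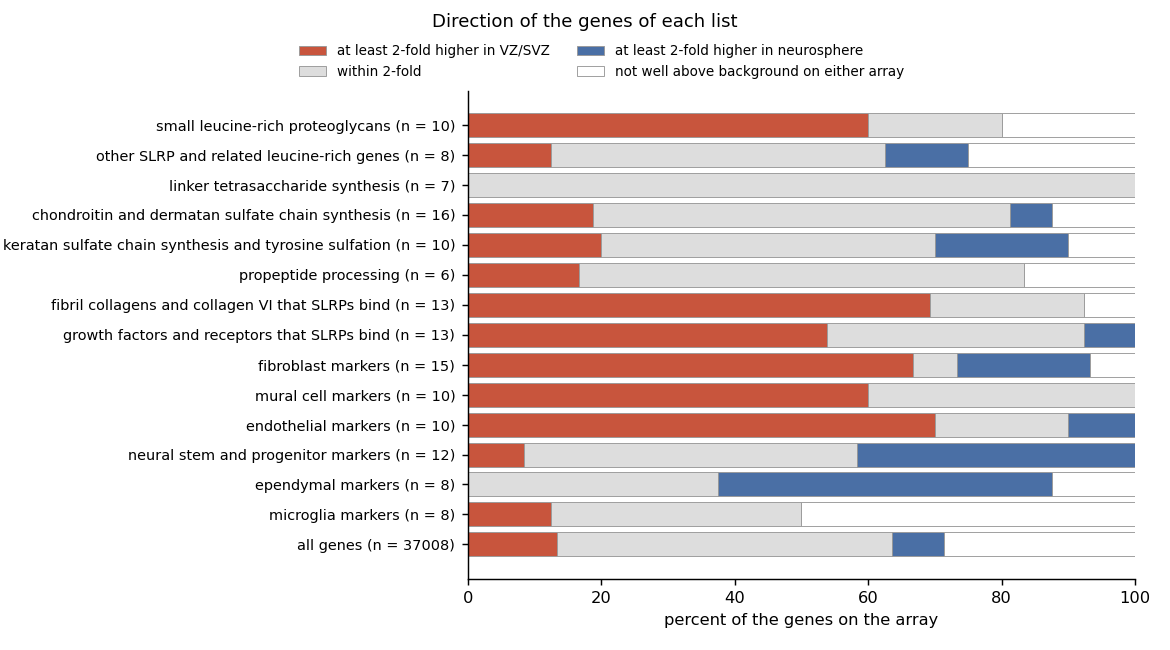
Percent of the genes on the array in each list past 2-fold towards VZ/SVZ (red), within 2-fold (grey), at least 2-fold higher in the neurosphere (blue) or not well above background on either array (white), genes dim on 1 array taken at their bound; n is the number of genes on the array. The SLRP list has 6 of 10 genes in red and none in blue, the collagens 9 of 13 and none, and the ependymal markers none in red and 4 of 8 in blue.

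**Figure D5:**
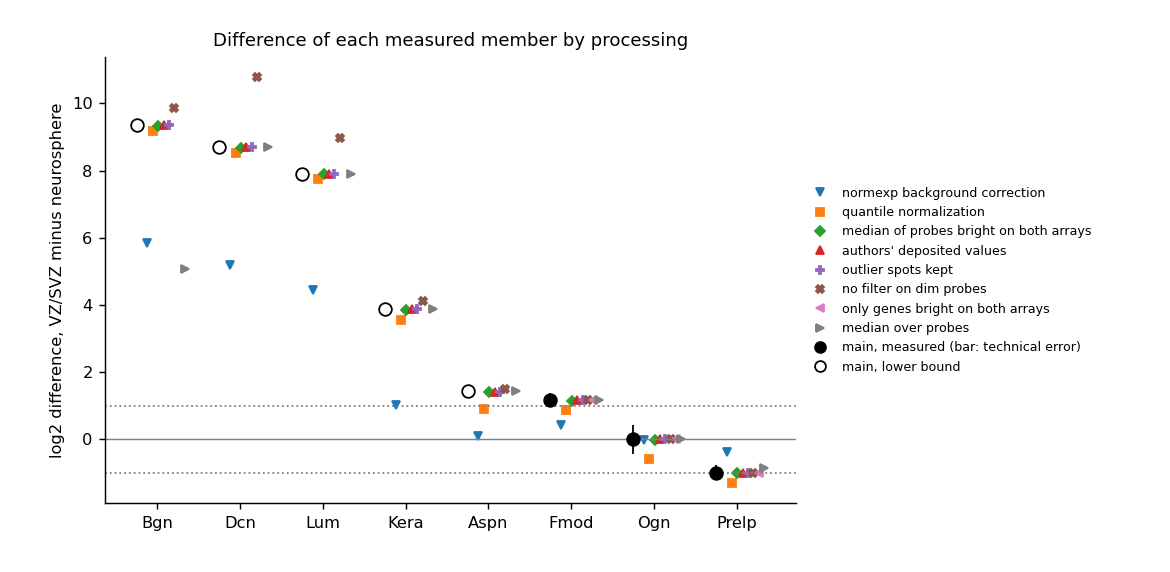
Log2 difference VZ/SVZ minus neurosphere of the 8 measured members in the main processing (large circles, filled where measured on both arrays with technical error as a bar, open where a lower bound) and under each alternative (small symbols), with dotted lines at 2-fold. Bgn, Dcn and Lum stay above 4 under every alternative drawn, normexp (triangles pointing down) lowers Kera to 1.02, and Prelp moves between -1.30 and -0.36.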

How the data were processed

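Total RNA was Cy3-labelled and hybridised to 1 array per sample, per the labels. Groups, neurosphere and VZ/SVZ, came from the sample titles. Per the file headers, spot intensity was extracted, background-subtracted and detrended with Agilent Feature Extraction 11.5.1.1 (9.1 in the submitters' processing notes), with no scaling of one array to the other. Set against it, the processed intensity in the authors' deposited table had a median ratio of 1.00.

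Control spots (3671 per array) and outlier spots (79 and 142) were left out. Levels are log2 of the processed signal minus each array's 75th percentile. The self-written steps (Python 3.11.15) were tested on simulated data. The normexp (offset 50) and quantile alternatives used limma 3.58.1 in R 4.3.3. A gene took its brightest probe among those well above background on at least 1 array. Other gene names were updated through RefSeq (GRCm38.p6) where an accession or symbol matched. No spot was saturated. The number of arrays limits the precision, and their headers give the same scan time.

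The rule for named genes took all members, the relatives, up to 4 members of each other list with the largest differences, and the nearest neighbours. Egfr, Slc6a13, Fbln1, Foxc1, Flt1, Prom1, Gfap, Acta2, B3galt6, Tll1 and Fabp7 fell outside it and were named after their values were seen. Planned protein features were not analysed here. Members and lists were chosen with earlier results of these data known. 8 alternatives were tried.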

Additional observations from a re-analysis of the deposited data

How the results depend on the processing

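With normexp Bgn was at least 5.83, Dcn 5.20, Lum 4.43, Kera 1.02 and Aspn 0.11, Fmod was 0.43 and Prelp -0.36, and genes past 2-fold fell to 1470 and 1268. Quantile normalization gave Fmod 0.89, Aspn at least 0.90, Ogn -0.59 and Prelp -1.30. The median of the genes' own shifts was -0.15, the median difference over all genes went from 0.04 to -0.05, and it put 51.9% of calls towards VZ/SVZ, normexp 53.7%, the main scaling 62.8%. Members past 2-fold in VZ/SVZ numbered 4 with either. In the neurosphere 1 member, Prelp, passed with quantile normalization and with scaling to the median of probes bright on both arrays. With no filter on dim probes Dcn was 10.77, Bgn 9.87 and Lum 8.96, and 7670 of 37006 genes passed towards VZ/SVZ, against 4934 of 26434 in the main processing. With genes bright on both arrays alone, 1 of 3 members and 3171 of 21949 genes passed towards VZ/SVZ. The members' median was then -0.0026, the sign turned with 5 members left out. With the median over probes Bgn was at least 5.06. By arithmetic the normexp offset of 50 shrinks folds between low signals, and its share in the normexp changes was not tested. The cause of the other changes was not tested. Of 91 such values, 69 kept within their error or 1.5 times their count. No paired analysis was possible because each group has 1 array. Signal over background limits the 5 members known by a bound, and Ogn.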
